A study of Mus musculus with 2 samples.

Results

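Interferon-stimulated CD8 T cells were followed in Hepa1-6 tumours, which grow from a mouse hepatoma cell line, after treatment with CD147-LYTACs and in a control. A LYTAC (lysosome-targeting chimaera) ties a protein outside the cell or on its surface to a receptor that travels to the lysosome, where the protein is broken down. CD147, or basigin, is encoded by Bsg. Per the labels, CD147-LYTACs were given 4 times at 40 mg/kg, 3 days apart, and tumours were taken on day 12, with the route left unclear between intraperitoneal and intravenous. The control is labelled only as a control, and no vehicle is described for it. In both groups CD45-negative and CD45-positive cells were sorted and recombined at 1 to 3, so the share of immune cells in a library was set by the sort. Each group was 1 droplet library, and the number of mice behind it is not stated. No difference below therefore has a replicate check, and no p-value was made from cells.

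The cells were selected on measured counts. A barcode first had to hold at least 500 unique molecular identifiers (UMIs, each standing for 1 captured RNA molecule), 300 genes, and no more than 15% of its UMIs from mitochondrial genes. The CD8 gate then took barcodes with at least 2 UMIs of Cd3e, Cd3d and Cd3g together and at least 2 of Cd8a and Cd8b1. It left out any barcode with Cd4 or Foxp3, more than 2 UMIs of the hepatoma keratins Krt8 and Krt18, more than 1 of the myeloid genes Lyz2, Csf1r and S100a8, or more than 2 of the cycling genes Mki67 and Top2a. Gate cells with at least 3 UMIs of Ifit1, Ifit3, Ifit1bl1 and Rsad2 together, called the score here, were the interferon-stimulated members. They were 32 of 1350 gate cells in CD147-LYTACs tumours and 48 of 1936 in control tumours, or 80 of 3286 in all, out of 8176 and 7091 filtered barcodes.

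Type I interferons bind the receptor IFNAR, whose kinases JAK1 and TYK2 activate a transcription factor complex that holds IRF9. The complex binds the interferon-stimulated response element in promoters and switches on antiviral genes, many of which sit in clusters of duplicated relatives. CD8 T cells carry this receptor, and a minority with high antiviral transcripts is a recurrent state in tumours and infected tissue.

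The 4 rule genes encode antiviral proteins: Ifit1, Ifit3 and Ifit1bl1 belong to the IFIT family, known for binding viral RNA, and Rsad2 encodes viperin, which makes a chain-terminating nucleotide. On GRCm38, Ifit3 (chr19:34583531-34588731, plus strand), Ifit1bl1 (chr19:34592891-34601956, minus strand) and Ifit1 (chr19:34640871-34650009, plus strand) lie in the same cluster, and Rsad2 (chr12:26442746-26456452, minus strand) stands apart. Their promoters are shown because the selection rests on these genes, beside those of Ifi208, a named marker of these cells, and of Isg15 and Slfn5, which the rule did not use. Each line gives the 160 bases before the annotated start, 5′ to 3′ on the gene's strand, from RefSeq on GRCm38.p6. Capitals mark each match, on either strand, to GAAA, any 2 bases and GAAA again, a core form of the response element.
Ifit1: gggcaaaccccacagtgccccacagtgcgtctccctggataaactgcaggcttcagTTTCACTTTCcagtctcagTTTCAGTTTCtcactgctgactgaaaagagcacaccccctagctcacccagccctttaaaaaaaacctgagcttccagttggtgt
Ifit3: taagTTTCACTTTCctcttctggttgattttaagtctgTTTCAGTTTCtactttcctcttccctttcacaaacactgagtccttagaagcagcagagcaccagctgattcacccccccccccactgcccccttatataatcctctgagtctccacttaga
Ifit1bl1: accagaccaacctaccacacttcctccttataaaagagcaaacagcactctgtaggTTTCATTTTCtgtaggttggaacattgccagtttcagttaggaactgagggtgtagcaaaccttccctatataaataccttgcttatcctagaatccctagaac
Rsad2: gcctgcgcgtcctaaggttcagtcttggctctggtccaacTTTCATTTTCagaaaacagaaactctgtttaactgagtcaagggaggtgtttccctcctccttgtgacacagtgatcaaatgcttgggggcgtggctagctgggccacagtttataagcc
Ifi208: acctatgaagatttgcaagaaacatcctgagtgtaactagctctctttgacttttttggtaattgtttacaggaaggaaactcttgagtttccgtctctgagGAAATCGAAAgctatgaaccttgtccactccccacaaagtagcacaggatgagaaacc
Isg15: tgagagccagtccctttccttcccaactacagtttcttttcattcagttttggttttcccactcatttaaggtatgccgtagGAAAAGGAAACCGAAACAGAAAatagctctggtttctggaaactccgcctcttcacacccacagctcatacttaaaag
Slfn5: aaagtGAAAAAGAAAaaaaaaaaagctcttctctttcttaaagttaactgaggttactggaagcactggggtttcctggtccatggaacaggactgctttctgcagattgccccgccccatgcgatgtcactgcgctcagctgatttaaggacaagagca
The windows are chr19:34640729-34640888 (Ifit1), chr19:34583369-34583528 (Ifit3), chr19:34601969-34602128 (Ifit1bl1, the outer of 2 annotated starts), chr12:26456453-26456612 (Rsad2), chr1:173673505-173673664 (Ifi208), chr4:156200819-156200978 (Isg15) and chr11:82951942-82952101 (Slfn5). Ifit1 and Ifit3 held 2 matches each, Ifit1bl1, Rsad2, Ifi208 and Slfn5 held 1, and Isg15 held 3 that overlap one another. A match describes the letters and is not a measured binding site.

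Depth was alike between the groups of cells. The libraries held 149812326 UMIs over 9219 barcodes in CD147-LYTACs tumours and 143495332 over 8150 in control tumours. Members had a median of 6874.5 UMIs and 2577 genes (CD147-LYTACs) and 6995.5 UMIs and 2605.5 genes (control). The other gate cells had a median of 6398 UMIs and 2484.5 genes (CD147-LYTACs) and 6593 UMIs and 2546.5 genes (control). Median mitochondrial shares of members were 2.31% in CD147-LYTACs tumours and 2.36% in control tumours, against 2.43% (CD147-LYTACs) and 2.38% (control) in the other gate cells. The libraries shared 24 barcodes, none of them a member.

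Some members also carried RNA of another lineage. Over 52 markers of hepatoma, macrophage, neutrophil, dendritic and B cells, a barcode with at least 10 UMIs was called mixed. Markers of these lists that T cells or several lineages hold, such as Ly6c2, Bst2 and Irf8, were left out of the 52. That choice and the limit were both made after seeing the data. Counts of genes by list below use the full lists. Mixed barcodes were 9 of 32 members (28.1%) and 62 of 1318 other gate cells (4.70%) in CD147-LYTACs tumours. In control tumours they were 3 of 48 members (6.25%) and 53 of 1888 other gate cells (2.81%). In CD147-LYTACs tumours mixed members held 19 to 479 such UMIs and the remaining members at most 6. In control tumours no gap lay at the limit, with 10 to 308 in mixed members and up to 9 in the remaining ones. The dendritic list led in 4 mixed CD147-LYTACs members and 2 mixed control members, and the neutrophil list in 3 CD147-LYTACs and 1 control member. Over the 10 neutrophil markers, the unmixed members held 3 UMIs in all in CD147-LYTACs tumours and 5 in control tumours, low counts that the definition of mixed partly set. Mixed members had 48.9% of the score UMIs of CD147-LYTACs members and 3.25% of those of control members, and their median depth was 13598 (CD147-LYTACs) and 5821 (control) UMIs, against 6017 (CD147-LYTACs) and 7182 (control) in unmixed members. Values without the mixed barcodes are given beside each gene level of members that moved by over 1.5 times without them.

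Interferon-stimulated cells took a like share of the CD8 gate in the treated and control libraries. The share was 2.37% (exact 95% interval 1.63% to 3.33%) in CD147-LYTACs tumours and 2.48% (1.83% to 3.27%) in control tumours, and the log2 ratio of the shares was -0.06 (-0.76 to 0.61). All intervals here cover counting error only and say nothing of differences between mice, tumours or cells. Without mixed barcodes, 23 of 1279 CD147-LYTACs cells (1.80%, 1.14% to 2.69%) and 45 of 1880 control cells (2.39%, 1.75% to 3.19%) were members, and the log2 ratio was -0.41 (-1.21 to 0.34). Both intervals take in no difference, and with 1 library per group a difference in share was not tested. A score on raw UMIs rises with depth. After every cell was thinned to 3000 UMIs, 2.62% of 1296 CD147-LYTACs cells and 2.21% of 1897 control cells had a score of at least 2. A score of at least 3 was held by 11 of these thinned CD147-LYTACs cells (0.849%, 0.424% to 1.51%) and 22 of the control cells (1.16%, 0.728% to 1.75%), so which library had the higher share turned with the threshold, and the intervals overlapped at both.

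The rule genes set membership, and their levels are a description only. Levels are counts per 1000000 UMIs of the summed cells (CPM). Ifit1 stood at 234 CPM in members against 4.34 CPM in other gate cells of CD147-LYTACs tumours, and at 398 against 5.63 CPM in control tumours. Ifit3 stood at 198 against 3.07 CPM (CD147-LYTACs) and 186 against 2.24 CPM (control), and Ifit1bl1 at 120 against 6.14 CPM (CD147-LYTACs) and 238 against 6.36 CPM (control). Rsad2 stood at 432 against 3.49 CPM in CD147-LYTACs tumours and 146 against 2.74 CPM in control tumours. Without mixed barcodes the member levels of Rsad2 were 236 CPM (CD147-LYTACs) and 138 CPM (control), and those of Ifit1bl1 were 197 CPM (CD147-LYTACs) and 255 CPM (control), so that both genes lay closer together in the libraries. Of the 37 Rsad2 UMIs in unmixed CD147-LYTACs members, 24 lay in the same cell. Unmixed control members held 45 Rsad2 UMIs, with at most 7 in a cell. The higher Rsad2 level in unmixed CD147-LYTACs members thus rested largely on that cell with 24. All 9 mixed CD147-LYTACs members held at least 3 Rsad2 UMIs.

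Members differed in which of the 4 genes they carried. Ifit1 was found in 18 of 32 CD147-LYTACs members and 37 of 48 control members, Ifit3 in 17 CD147-LYTACs and 27 control members, Ifit1bl1 in 16 and 27, and Rsad2 in 17 and 17. A single rule gene gave the whole score in 7 CD147-LYTACs members and 11 control members, and all 4 genes were present in 2 CD147-LYTACs members and 6 control members. The median score was 4 in each library. The highest score was 66 in CD147-LYTACs members, in a mixed barcode, or 39 without these, and 31 in control members. Of the members with a score of at least 10, 4 of 6 were mixed in CD147-LYTACs tumours and 0 of 11 in control tumours.

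The threshold cut through a graded distribution. With a score of 2, just outside, there were 29 CD147-LYTACs cells and 31 control cells, and with a score of 3, just inside, 9 CD147-LYTACs and 17 control cells. A sum of 75 interferon-stimulated genes that the rule did not use, in 9 lists covering IFIT relatives, OAS, the ISG15 system, restriction factors, nucleic acid sensors, IFI200, Schlafen, IFI27 relatives and PARP genes, was followed over the score. In CD147-LYTACs tumours it was 4101 CPM at a score of 0, 5670 at 1, 6016 at 2, 7404 at 3, 7681 at 4 to 5, 14681 at 6 to 9 and 14496 at 10 or more. In control tumours it was 3980, 5193, 6294, 6637, 9103, 11275 and 13400 CPM over the same steps. The sum was thus already above its level at a score of 0 in cells with 1 or 2 score UMIs, which the rule left out. Without mixed barcodes the step of 10 or more was at 11396 CPM in CD147-LYTACs tumours, over 2 cells. In control tumours the step of 2 was then at 5190 CPM, close to the 5144 CPM at a score of 1.

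**Figure D1:**
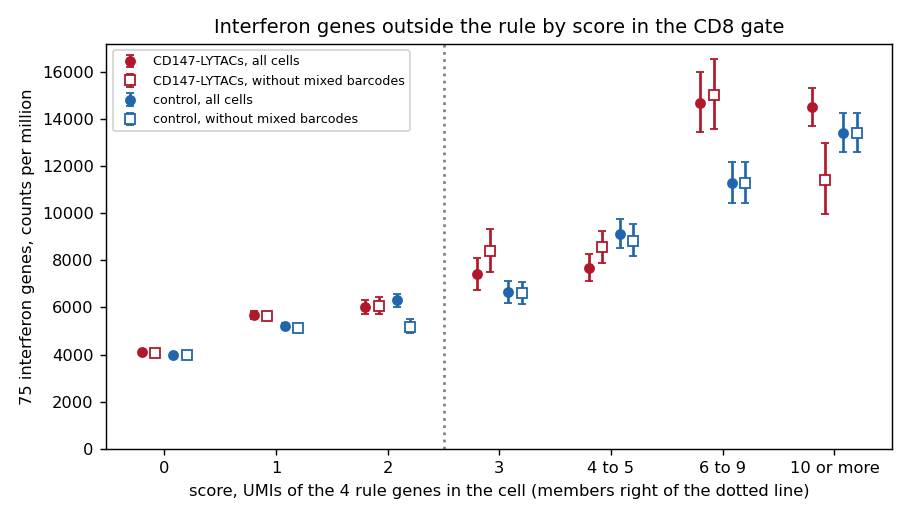
Summed level of 75 interferon genes outside the rule (vertical axis, CPM) by the score of the 4 rule genes (horizontal axis) in CD8 gate cells of CD147-LYTACs tumours (red, left in each step) and control tumours (blue), with exact 95% counting intervals and open squares for cells without mixed barcodes. The level was 4101 (CD147-LYTACs) and 3980 (control) at a score of 0 and at least 11275 from a score of 6 in all cells of both.

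Single members spread widely around these sums. The 75-gene level per cell ran from 2815 over a median of 10623 to 29459 CPM in CD147-LYTACs members, and from 3137 over 9058 to 31945 CPM in control members. The medians of the other gate cells were 3950 CPM (CD147-LYTACs) and 3800 CPM (control). All but 1 member of each library, 31 of 32 (CD147-LYTACs) and 47 of 48 (control), exceeded that median, while 18 of 32 (CD147-LYTACs) and 30 of 48 (control) exceeded the 95th percentile of the other gate cells, 8474 CPM (CD147-LYTACs) and 7982 CPM (control). The groups of cells thus overlapped.

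**Figure D2:**
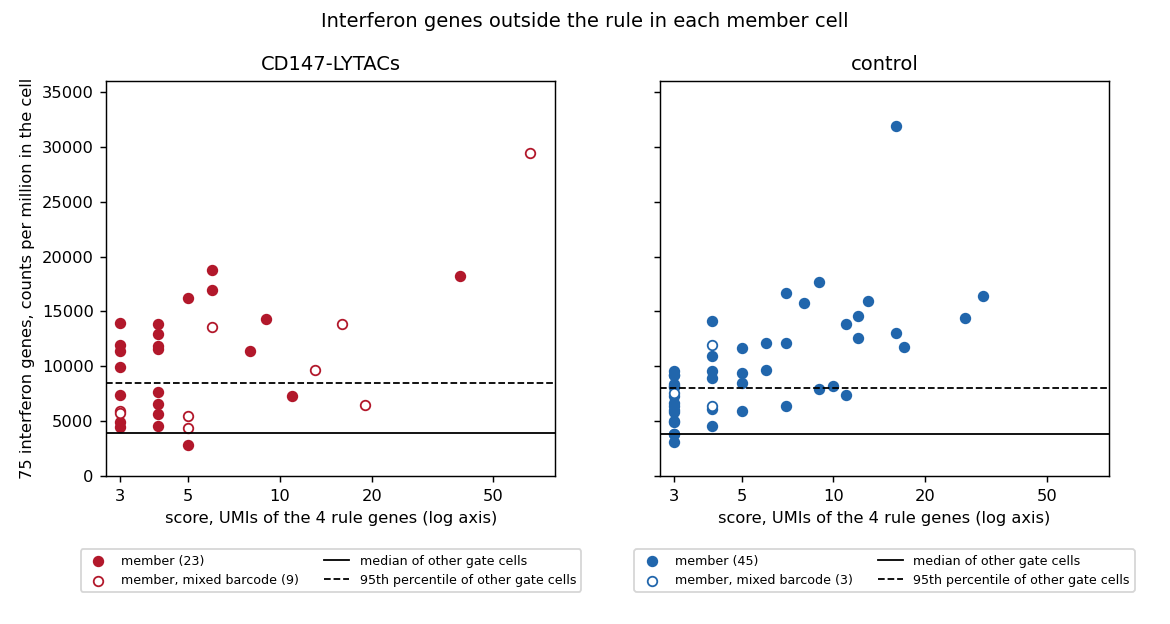
Each point is 1 member, with its score on a log horizontal axis and its level of the 75 interferon genes outside the rule (CPM in the cell) on the vertical axis, for CD147-LYTACs tumours (left) and control tumours (right); open circles are mixed barcodes and lines give the median and 95th percentile of the other gate cells. In CD147-LYTACs tumours 18 of 32 members lie above the upper line, and in control tumours 30 of 48.

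Members were then set against the other gate cells gene by gene, each library on its own. All genes of the cells that were selected are a description here, since genes that vary together enter with the rule. A gene was counted as higher or lower when members differed from the other gate cells at least 1.5-fold in both libraries, with at least 50 CPM in the higher cells, at least 30 UMIs and an interval that left out no difference. A gene under 50 CPM in the other gate cells passed only where members were above it, so it could not come out lower. Of 3547 genes past these floors in both libraries, 114 were higher (3.21%) and 20 were lower (0.564%), and the median log2 ratio over all of them was -0.01 (CD147-LYTACs) and -0.04 (control). Without mixed barcodes 92 of 3580 were higher (2.57%) and 14 were lower (0.391%). Of the 114 higher genes 75 were also higher without mixed barcodes (65.8% of the first list and 81.5% of the second), and of the 20 lower genes 6 were also lower (30% and 42.9%). The 9 interferon lists held 33 of the 114, and 50 of the 114 stood in none of the gene lists used. Dendritic markers had 5 of 7 genes past the floors higher and 1, Irf8, lower. Without mixed barcodes 1 of 3 was higher, and Irf8 was again lower. The higher gene there was Bst2, which also stands in the list of restriction factors. H2-Aa, H2-Ab1, H2-Eb1 and Cd74 were among the 114 but not among the 92. Markers of dendritic cells were part of the 52 that defined mixed barcodes. A loss of such markers without these barcodes was therefore set at least partly by that definition.

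Of the 75 interferon genes, 40 passed the floors, and 33 of these were higher in members in both libraries and 0 lower. Their median log2 ratio was 1.60 in CD147-LYTACs tumours and 1.78 in control tumours, and without mixed barcodes 31 of 40 were higher, with medians of 1.84 (CD147-LYTACs) and 1.86 (control). These counts and medians, and those of the lists below, were partly set by the CPM floor. Genes low in other gate cells passed it only through the members. Summed over all 75, passed or not, the level was 10546 CPM in members against 4277 CPM in other gate cells of CD147-LYTACs tumours, a log2 ratio of 1.30 (1.25 to 1.36). In control tumours it was 9588 CPM against 4150 CPM, a log2 ratio of 1.21 (1.16 to 1.26).

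The ISG15 system, which attaches the ubiquitin-like protein ISG15 to other proteins, was higher for all 4 of its genes past the floors, with median log2 ratios of 2.17 (CD147-LYTACs) and 2.53 (control), or 2.15 (CD147-LYTACs) and 2.56 (control) without mixed barcodes. Isg15 itself stood at 581 CPM in members against 68.4 CPM in other gate cells of CD147-LYTACs tumours and at 366 against 61.5 CPM in control tumours. Without mixed barcodes it was 369 CPM in members of each library, so the higher level in CD147-LYTACs members was no longer seen. Usp18, which removes ISG15 and also restrains the interferon receptor, stood at 63.8 against 8.68 CPM (CD147-LYTACs) and 83.0 against 7.87 CPM (control). Thinned to 2000 UMIs, Isg15 was found in 43.8% of CD147-LYTACs members and 39.6% of control members, against 9.47% (CD147-LYTACs) and 10.5% (control) of the other gate cells (unthinned, members at 75% and 68.8% and other gate cells at 24.7% and 26.5% in the same order). Hepatoma cells, which can make Isg15 themselves, had it in 6.45% (CD147-LYTACs) and 5.47% (control) after the same thinning, and in 47.9% (CD147-LYTACs) and 50.1% (control) before it, at median depths of 40070 UMIs (CD147-LYTACs) and 44954.5 UMIs (control).

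Among RNA and DNA sensors, all 3 genes past the floors were higher. Ifih1, which encodes the double-stranded RNA sensor MDA5, stood at 120 against 22.2 CPM in CD147-LYTACs tumours and 155 against 26.7 CPM in control tumours. Zbp1, a sensor of Z-form nucleic acid that can start necroptosis, stood at 152 against 32.9 CPM (CD147-LYTACs) and 132 against 25.5 CPM (control). Both were also higher without mixed barcodes.

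The IFIT relative Ifit2, next to the rule genes on chromosome 19, stood at 103 CPM in members against 8.57 CPM in other gate cells of CD147-LYTACs tumours. In control tumours it stood at 91.6 against 7.51 CPM. Without mixed barcodes its member levels were 57.3 CPM (CD147-LYTACs) and 95.2 CPM (control). It was found in 10 of 32 CD147-LYTACs members and 16 of 48 control members. Oasl1, an OAS-like gene known in mice for holding back translation of Irf7, had log2 ratios of 3.83 (CD147-LYTACs) and 3.05 (control) but lay in only 7 of 32 CD147-LYTACs and 5 of 48 control members, and it fell under the floors without mixed barcodes, where the log2 ratios were 2.75 (CD147-LYTACs) and 4.86 (control). It was the only gene of its list past the floors.

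Restriction factors were higher for 9 of 12 genes past the floors, and for 8 of 12 without mixed barcodes. Rtp4, an interferon-induced antiviral zinc-finger protein, stood at 145 against 9.32 CPM in CD147-LYTACs tumours and 63.0 against 7.37 CPM in control tumours, and without mixed barcodes its member levels were 76.4 CPM (CD147-LYTACs) and 67.6 CPM (control). Bst2, or tetherin, which holds budding virus at the membrane, stood at 347 against 81.7 CPM (CD147-LYTACs) and 186 against 59.0 CPM (control). Ifitm1, a membrane protein that hinders virus entry, was an exception that ran opposite ways, with 531 against 399 CPM (log2 ratio 0.41) in CD147-LYTACs tumours and 135 against 299 CPM (-1.15) in control tumours. It lay in 13 of 32 CD147-LYTACs members and 8 of 48 control members.

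Duplicated families on single chromosomes were higher together. The IFI200 family, whose members bind DNA in the nucleus or cytosol, had 6 of 7 genes higher (7 of 8 without mixed barcodes), at median log2 ratios of 1.88 (CD147-LYTACs) and 2.48 (control), or 2.15 (CD147-LYTACs) and 2.67 (control) without mixed barcodes. Ifi213 stood at 103 against 13.9 CPM in CD147-LYTACs tumours and 100 against 13.2 CPM in control tumours, and Ifi214 at 74.4 against 15.7 CPM (CD147-LYTACs) and 143 against 17.4 CPM (control). Without mixed barcodes the member levels of Ifi214 were 121 CPM (CD147-LYTACs) and 151 CPM (control). Ifi208, one of the marker genes for these cells, stood at 49.6 against 11.1 CPM (CD147-LYTACs), just under the floor of 50 CPM, and 85.9 against 10.1 CPM (control), and it was higher in both libraries without mixed barcodes, with member levels of 82.7 CPM (CD147-LYTACs) and 89.1 CPM (control). The 6 genes of the family that were higher, Ifi206, Ifi214, Ifi213, Ifi209, Mndal and Ifi203, lie in chr1:173468485-173942672.

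The Schlafen family, known for regulating T cell quiescence and cutting transfer RNA, was higher for all 4 genes past the floors (3 of 4 without mixed barcodes), all within chr11:82951349-83122670. Slfn5 stood at 99.2 against 5.50 CPM in CD147-LYTACs tumours and 80.1 against 6.86 CPM in control tumours, but in 8 members of each library. Without mixed barcodes it stood at 50.9 against 4.25 CPM (CD147-LYTACs) and 76.8 against 2.89 CPM (control). After thinning to 2000 UMIs it was found in 12.5% of CD147-LYTACs members and 10.4% of control members, against 1.22% (CD147-LYTACs) and 0.691% (control) of the other gate cells (unthinned, members at 25.0% and 16.7% and other gate cells at 3.11% and 1.91% in the same order). Among thinned hepatoma cells it was found in 0 of 1442 (CD147-LYTACs) and 0 of 1389 (control), which at 2000 UMIs allows shares of cells with a UMI of up to 0.255% (CD147-LYTACs) and 0.265% (control) by the exact interval. At their full depth it was found in 1.04% (CD147-LYTACs) and 1.43% (control) of hepatoma cells. Slfn8 stood at 92.1 against 22 CPM (CD147-LYTACs) and 157 against 26.1 CPM (control). Relatives in these families are close in sequence: the 300-base promoter entries of Ifi208 and Ifi213 share a run of 135 bases, and how reads were split between such copies is not stated, so values of single IFIT, IFI200 and Schlafen genes are less certain than those of the families.

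**Figure D3:**
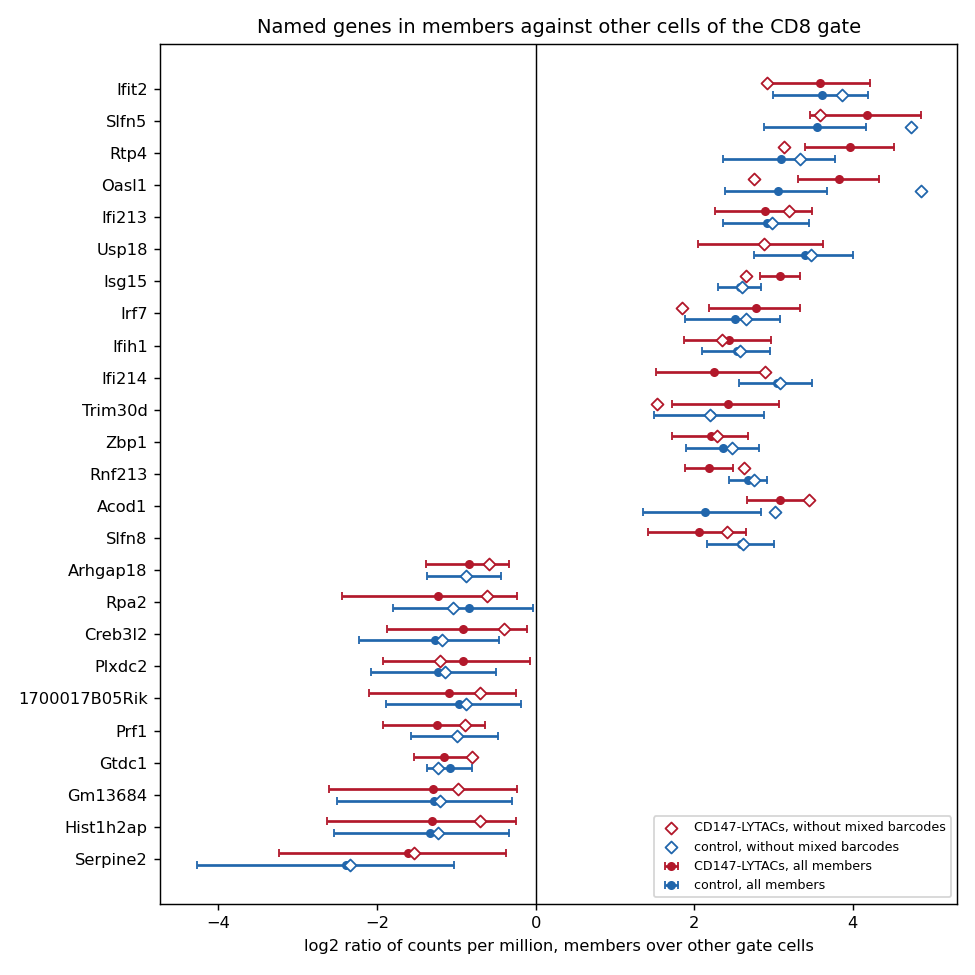
Log2 ratio of CPM, members over other gate cells (horizontal axis), for the 15 highest and 10 lowest genes by the naming rule, in CD147-LYTACs tumours (red) and control tumours (blue), with exact 95% counting intervals and open diamonds for values without mixed barcodes. All 15 higher genes lie at 2.06 or above in both libraries, and Acod1, Oasl1 and Trim30d were under the floors without mixed barcodes.

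Other named genes that were higher included Rnf213, a giant ubiquitin ligase, at 365 against 79.9 CPM in CD147-LYTACs tumours and 495 against 77.3 CPM in control tumours. Acod1, which makes itaconate and is known from activated myeloid cells, had 237 against 28.2 CPM (CD147-LYTACs) and 51.5 against 11.7 CPM (control), from 8 CD147-LYTACs and 2 control members, and was under the floors without mixed barcodes, at 95.5 CPM in CD147-LYTACs members and 15.4 CPM in control members. Guanylate-binding proteins and immunity-related GTPases, which attack vacuoles that hold pathogens and respond to type I and type II interferon, were higher for 10 of 11 genes, with or without mixed barcodes, at median log2 ratios of 1.54 (CD147-LYTACs) and 1.71 (control). Gbp2 stood at 220 against 39.2 CPM in CD147-LYTACs tumours and at 166 against 42.1 CPM in control tumours. Without mixed barcodes it was at 82.8 CPM in CD147-LYTACs members and 166 CPM in control members.

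The signalling parts upstream of these genes were less far apart. Interferon receptors and their kinases had 0 of 5 genes higher or lower, with median log2 ratios of -0.05 (CD147-LYTACs) and 0.05 (control), and Ifnar1 stood at 92.1 against 103 CPM (CD147-LYTACs) and 88.7 against 102 CPM (control). Transcription factors had 5 of 10 genes higher and 1 lower (4 and 1 without mixed barcodes). Irf7, the factor that amplifies type I interferon, had log2 ratios of 2.78 (CD147-LYTACs) and 2.51 (control), or 1.84 (CD147-LYTACs) and 2.65 (control) without mixed barcodes. Stat2, a subunit of the complex with IRF9, had log2 ratios of 1.28 (CD147-LYTACs) and 1.30 (control). Irf9 had 1.22 (CD147-LYTACs) and 1.03 (control) and was not counted as higher without mixed barcodes, where the interval in CD147-LYTACs tumours took in 0 (0.85, -0.23 to 1.75). Irf8, a factor of dendritic cells that activated CD8 T cells also express, was the lower one, at 312 against 534 CPM (CD147-LYTACs) and 209 against 422 CPM (control). Without mixed barcodes its log2 ratios were -1.92 (CD147-LYTACs) and -1.22 (control).

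Antigen presentation and surface genes were mixed. Of 18 MHC class I genes, 2 were higher, with median log2 ratios of 0.35 (CD147-LYTACs) and 0.26 (control), and the peptide transporter Tap1 stood at 191 against 126 CPM (CD147-LYTACs) and 186 against 119 CPM (control). Surface and secreted interferon targets had 8 of 16 higher, and 10 of 16 without mixed barcodes. Cd274, which encodes the inhibitory ligand PD-L1, stood at 468 against 132 CPM in CD147-LYTACs tumours and 309 against 148 CPM in control tumours, and its log2 ratios without mixed barcodes were 1.20 (CD147-LYTACs) and 0.85 (control). Cxcl10, a chemokine that draws CXCR3-bearing T cells, stood at 588 against 16.8 CPM (CD147-LYTACs) and 120 against 31.1 CPM (control), and at 134 against 13.6 CPM (CD147-LYTACs) and 120 against 12.5 CPM (control) without mixed barcodes.

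**Figure D4:**
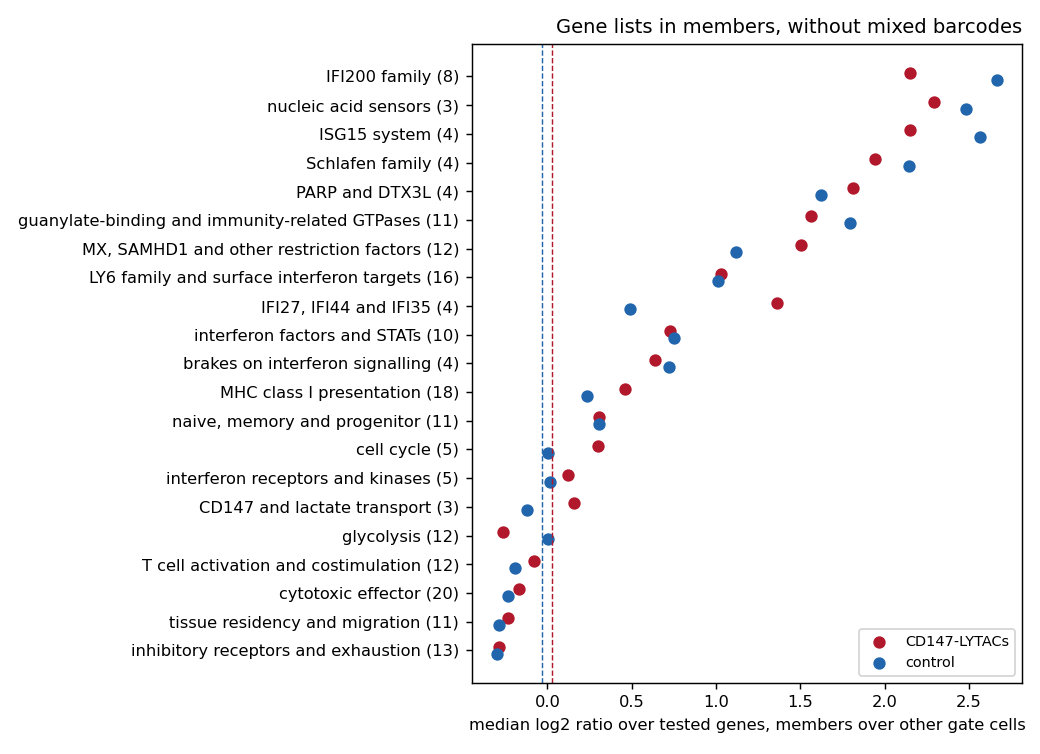
Median log2 ratio of members over other gate cells (horizontal axis) for each gene list, without mixed barcodes, in CD147-LYTACs tumours (red) and control tumours (blue), with the number of genes past the floors in brackets and dashed lines at the medians of all genes. The IFI200, sensor and ISG15 lists lie above 2 in both libraries, and the exhaustion list lies below 0 in both. Genes low in other gate cells passed the CPM floor only through the members.

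Few genes of T cell state differed. Of 13 genes for inhibitory receptors and exhaustion, 0 were higher and 1, Ikzf2, was lower, with median log2 ratios of -0.32 (CD147-LYTACs) and -0.21 (control). Pdcd1, which encodes PD-1, stood at 266 against 333 CPM in CD147-LYTACs tumours and 358 against 330 CPM in control tumours. Of 21 cytotoxic genes, 0 were higher and 2 were lower. Prf1, which encodes the pore-forming protein perforin, stood at 77.9 against 184 CPM in CD147-LYTACs tumours and 85.9 against 171 CPM in control tumours, and was in 37.5% of members of each library, against 51.8% (CD147-LYTACs) and 50.5% (control) of the other gate cells. It was also lower without mixed barcodes, at log2 ratios of -0.89 (CD147-LYTACs) and -0.99 (control). Gzmf, a granzyme of strongly activated cells, was the other, with 39 UMIs from 3 CD147-LYTACs members and 5 UMIs from 2 control members, and it stood at 19.1 CPM in CD147-LYTACs members and 15.4 CPM in control members without mixed barcodes. Ifng, the gene for interferon gamma, stood at 163 against 317 CPM (CD147-LYTACs) and 175 against 231 CPM (control) and did not reach 1.5-fold in control tumours.

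Among the 20 lower genes, those also lower without mixed barcodes were Rgs16, Gtdc1, Irf8, Prf1, Gzmf and Dscam. Rgs16, a brake on G-protein signalling that activated T cells express, stood at 322 against 566 CPM in CD147-LYTACs tumours and 197 against 610 CPM in control tumours. The glycosyltransferase-like gene Gtdc1 stood at 227 against 507 CPM (CD147-LYTACs) and 295 against 624 CPM (control). Serpine2, a protease inhibitor, had log2 ratios of -1.61 (CD147-LYTACs) and -2.40 (control), on 5 and 4 member UMIs. The naive, memory and progenitor list had 2 of 11 genes higher, Tcf7 and Lef1, of which neither was so without mixed barcodes, when 1 of 11 was. Lists for tissue residency (11 genes), costimulation (13), cell cycle (5), glycolysis (13) and lactate transport (3) had 0 genes higher and 0 lower. Without mixed barcodes the costimulation receptor Tnfrsf4 was lower, with the checkpoint receptor Lag3 and the metallothionein Mt1 of other lists.

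Members were found among CD8 cells with inhibitory receptors and among those with the progenitor factor Tcf7. Pdcd1 and Havcr2 were detected together in 50% of members against 54.5% of other gate cells in CD147-LYTACs tumours, and in 45.8% against 52.4% in control tumours. Pdcd1 with Tcf7 was detected in 18.8% against 7.59% (CD147-LYTACs) and 12.5% against 6.83% (control), which rests on 6 members in each library. Without mixed barcodes Pdcd1 with Havcr2 was detected in 43.5% (CD147-LYTACs) and 46.7% (control) of members, and Pdcd1 with Tcf7 in 17.4% (CD147-LYTACs) and 13.3% (control). The members were not made up of 1 receptor family, since the 11 CD147-LYTACs members with a T cell receptor beta variable segment used 7 segments and the 10 such control members used 8.

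The response element form (GAAA, any 2 bases, GAAA), searched on both strands, was found in the 300-base promoters of 29 of the 92 higher genes that matched the promoter table (31.5%), against 131 of 2869 matched genes past the floors (4.57%) and 1079 of 27025 genes of the whole table (3.99%). Of the higher genes, it was found for 14 of 26 matched ones of the 9 interferon lists (53.8%) and for 15 of 66 outside them (22.7%). Of 6 matched genes of these lists that passed the floors without being higher, 2 held it (33.3%). Of 16 matched lower genes 0 held it. Ifit2, Irf7 and Rnf213 were higher without these letters in the window.

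CD147-LYTACs members were then set against control members. Of 3698 genes, 293 were higher (7.92%) and 302 were lower (8.17%) in CD147-LYTACs members by the same floors. Without mixed barcodes 141 of 3030 were higher (4.65%) and 173 were lower (5.71%), and 77 of the 293 (26.3%) and 118 of the 302 (39.1%) were among them. In the other gate cells, which are far more numerous, 18 of 3641 were higher (0.494%) and 15 were lower (0.412%). Members are few, and intervals that cover counting error only are too narrow where 1 cell carries much of a gene: a single member held at least 50% of the UMIs of 23 of the 293 higher and 3 of the 302 lower genes.

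The summed level of the 75 interferon genes was close in both, at 10546 CPM in CD147-LYTACs members and 9588 CPM in control members, a log2 ratio of 0.14 (0.07 to 0.21), and 0.06 (-0.03 to 0.14) without mixed barcodes. Of 49 of these genes past the floors, 14 were higher and 7 lower, at a median of 0.12. Without mixed barcodes 5 of 39 were higher and 1 was lower, at a median of -0.12. Herc6, the main ISG15 ligase in mice, stood at 106 CPM in CD147-LYTACs members and 260 CPM in control members, and was also lower without mixed barcodes, at a log2 ratio of -1.07. Bst2 was higher with and without mixed barcodes (0.90 and 1.03), as were Ifi35 (0.73 and 1.22) and Ifitm1 (1.98 and 2.39), although 1 control member held 55.3% of the control Ifitm1 UMIs.

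Bsg, whose protein is the target of the treatment, stood at 138 CPM in CD147-LYTACs members and 71.5 CPM in control members, a log2 ratio of 0.95 (0.19 to 1.74) from 39 and 25 UMIs, and 1.05 without mixed barcodes. In the other gate cells it stood at 124 CPM (CD147-LYTACs) and 109 CPM (control), a log2 ratio of 0.18. These are transcript levels and do not measure the CD147 protein.

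The named genes with the greatest ratios of CD147-LYTACs over control members were Sgms2, Slpi, Cybb, Il1b, Gzme, Cd14, Creb5, Fmnl2, Il1rn and Cxcl2. Of these 10, Cxcl2 and Gzme were still higher without mixed barcodes, and the other genes were under the floors there. Il1b, which encodes the cytokine interleukin-1 beta, had 181 UMIs in CD147-LYTACs members and 12 in control members, and 1 UMI in CD147-LYTACs and 0 in control members without mixed barcodes. Cd14, a receptor for bacterial lipopolysaccharide on myeloid cells, had 33 UMIs in CD147-LYTACs and 0 in control members, and 2 and 0 in the same order without mixed barcodes. Cxcl2, a neutrophil-drawing chemokine, stood at 1385 CPM in CD147-LYTACs members and 126 CPM in control members, and at 204 CPM (CD147-LYTACs) and 49.2 CPM (control) without mixed barcodes, while in the other gate cells its log2 ratio was 2.78. Gzme, a granzyme, had 44 UMIs in CD147-LYTACs members, 81.8% of them in 1 of 2 cells, and 0 in control members.

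The lowest named gene was Gzma, which encodes granzyme A, with 17.7 CPM in 2 of 32 CD147-LYTACs members against 215 CPM in 8 of 48 control members, where 1 cell held 45.3% of the UMIs. Hspa1b, a heat shock chaperone, stood at 56.7 CPM in 3 CD147-LYTACs members and 384 CPM in 9 control members, and 1 control cell held 56.0%. Nt5e, which encodes the adenosine-producing enzyme CD73, stood at 17.7 CPM in 5 CD147-LYTACs members and 100 CPM in 16 control members, and Mapk14, which encodes the stress kinase p38 alpha, at 17.7 CPM in 5 CD147-LYTACs members and 85.9 CPM in 19 control members. These 4 genes were also lower without mixed barcodes. In the other gate cells their log2 ratios were 0.21 (Gzma), -0.10 (Hspa1b), 0.09 (Nt5e) and -0.23 (Mapk14).

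**Figure D5:**
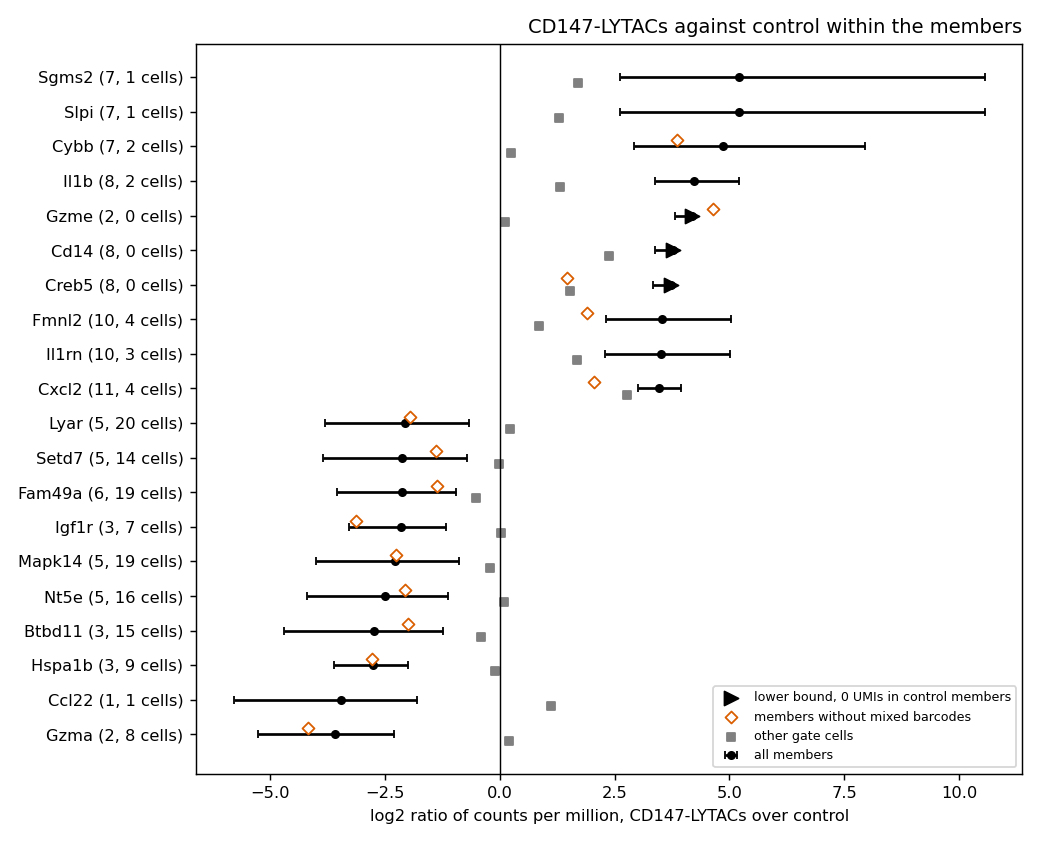
Log2 ratio of CPM, CD147-LYTACs over control (horizontal axis), for the 10 highest and 10 lowest named genes within members, with exact 95% counting intervals, the number of CD147-LYTACs and control members with the gene in brackets, orange diamonds for members without mixed barcodes and grey squares for the other gate cells. Where a group had 0 UMIs, 3 UMIs were taken in its place, and no diamond is drawn where both groups had at most 3. The grey squares of Gzma, Hspa1b, Nt5e and Mapk14 lie between -0.23 and 0.21.

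Other cell types of the same libraries also held the rule genes. Gates for other cell types were set after the files were seen. At least 3 score UMIs were held by 24.5% of 151 macrophage or monocyte barcodes in CD147-LYTACs tumours and 34.3% of 67 in control tumours, by 22.5% of 565 (CD147-LYTACs) and 20.4% of 54 (control) neutrophil barcodes, and by 15.2% of 33 (CD147-LYTACs) and 7.14% of 28 (control) dendritic barcodes. Among T cells outside the gate they were held by 4.70% of 149 (CD147-LYTACs) and 1.75% of 228 (control) conventional CD4 cells, by 2.04% of 49 (CD147-LYTACs) and 4.55% of 66 (control) Foxp3-positive CD4 cells, and by 2.88% of 312 (CD147-LYTACs) and 2.84% of 317 (control) cycling CD8 cells. Hepatoma cells, which are far deeper, held them in 3.87% of 1447 (CD147-LYTACs) and 4.94% of 1398 (control), and B barcodes in 0 of 21 (CD147-LYTACs) and 1 of 30 (control). NK barcodes at that score were 0 of 29 (CD147-LYTACs) and 0 of 23 (control), which allows shares of up to 11.9% and 14.8% by the exact interval. After thinning to 2000 UMIs, at least 1 score UMI was held by 5.44% (CD147-LYTACs) and 5.54% (control) of CD8 gate cells, 31.7% (CD147-LYTACs) and 33.8% (control) of macrophage or monocyte barcodes and 35.8% (CD147-LYTACs) and 32.6% (control) of neutrophil barcodes. The make-up of the score differed between them. Rsad2 stood at 379 CPM (CD147-LYTACs) and 321 CPM (control) in macrophage or monocyte barcodes and at 15.9 (CD147-LYTACs) and 6.27 CPM (control) in the whole CD8 gate. Ifit1bl1 stood at 3.39 (CD147-LYTACs) and 2.96 CPM (control) in macrophage or monocyte barcodes and at 9.46 (CD147-LYTACs) and 12.0 CPM (control) in the CD8 gate. Transcripts of interferon beta (Ifnb1) numbered 7 (CD147-LYTACs, 5.93 CPM) and 1 (control, 1.48 CPM) in macrophage or monocyte barcodes. Neutrophil barcodes held 1 (CD147-LYTACs) and 0 (control), and the CD8 gate held 0 in either library.

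Over the cells of the gate, the genes whose log level followed the score most closely were Ifit2, Rnf213, Rtp4, Ifi209, Cmpk2, Slfn5, Usp18, Ifi213, Ifit3b and Isg15. The lower of the 2 libraries' Pearson correlations was 0.26 for Ifit2 and 0.22 for Isg15, over 1350 and 1936 cells that share library and depth, and these weak values are given as a description.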

How the data were processed

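The deposited values are unnormalized whole UMI counts, 1 matrix per library and 1 library per group, made by the authors with Cell Ranger 3.0.2 on mm10 per the submitters' processing notes, or 7.1.0 per the file headers. The annotation release and the treatment of intronic or multi-mapped reads are not given in the sources used here. UMIs were summed per library over members and over the other gate cells and divided by the cells' total UMIs to give CPM. Shares have exact Clopper-Pearson, sums exact Poisson and log2 ratios exact conditional binomial 95% intervals, with 3 counts taken for 0. The ratio scripts were tested on simulated Poisson counts without spread between cells, so that test does not cover genes carried by single cells. Members, gene lists and gates were chosen with earlier results of these data known. Genes were named as the 15 greatest and 10 smallest ratios past the floors in both libraries, for CD147-LYTACs against control the 10 greatest and 10 smallest. Rule, gate, mitochondrial, ribosomal, haemoglobin, immunoglobulin and receptor segment genes were left out of naming. Doublets were not removed in the main values, and scrublet in scanpy 1.11.5 gave an alternative: its automatic threshold marked 134 CD147-LYTACs and 1 control barcodes, so the highest scores were taken out, 0.8% per 1000 barcodes. Python 3.11.15, numpy 2.4.6, scipy 1.17.1 and pandas 2.3.3 were used. Some listed genes, such as Mx1, Mx2, Oas1b and Gbp11, were not analysed here. Gene positions are from GENCODE M21 on GRCm38 (mm10).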

Additional observations from a re-analysis of the deposited data

Results flagged for a closer look

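Among genes listed, named or counted above, 2 ran opposite ways in the libraries for members against the other cells of the CD8 gate. Both differed at least 1.5-fold in each library, with intervals that left out no difference. Ifitm1, which also ran opposite ways, did not reach 1.5-fold in CD147-LYTACs tumours. Other genes past the floors were not searched. Cd69, an early activation and tissue retention marker, had a log2 ratio of members over other gate cells of -0.731 in CD147-LYTACs tumours (117 against 194 CPM) and 0.588 in control tumours (263 against 175 CPM). It was found in 14 of 32 CD147-LYTACs members and 35 of 48 control members. Gzma, which encodes granzyme A, had a log2 ratio of -3.12 in CD147-LYTACs tumours (17.7 against 154 CPM) and 0.682 in control tumours (215 against 134 CPM), and was found in 2 CD147-LYTACs and 8 control members. As given above, a single control member held a large part of the Gzma UMIs of control members. The ratio above 0 in control tumours leaned on that cell. Without mixed barcodes the ratios were -0.43 (CD147-LYTACs) and 0.66 (control) for Cd69 and -3.48 (CD147-LYTACs) and 0.73 (control) for Gzma. With 1 library per group, the difference between the libraries was not tested for either gene.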

How the results depend on the processing

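No paired analysis was possible because each group holds 1 library. The share of interferon-stimulated cells followed the threshold: at a score of at least 2 it was 4.52% in CD147-LYTACs tumours and 4.08% in control tumours, and at a score of at least 5 it was 1.11% (CD147-LYTACs) and 1.19% (control). Without Ifit1 in the score the control share was 1.55%, and without Rsad2 the CD147-LYTACs share was 1.56%. The log2 ratio of the 75-gene sum, members over other gate cells, stayed above 0 under every alternative run. In CD147-LYTACs tumours it was 0.99 at a score of at least 2, 1.48 at 5, 1.22 at a score of at least 2 after thinning to 3000 UMIs, 1.48 with the highest scrublet scores removed, 1.45 without Ifit1, 1.48 without Rsad2, 1.36 against cells with a score of 0 and 1.24 without mixed barcodes. In control tumours it was 0.95 at a score of at least 2, 1.48 at 5, 1.31 without Ifit1, 1.28 without Ifit3, 1.32 without Ifit1bl1 and 1.27 against cells with a score of 0. Genes higher in members numbered 183 with no CPM floor, and genes lower numbered 35 at a score of at least 2 after thinning, a setting that changes both depth and threshold. For CD147-LYTACs over control within members, 141 genes were higher and 173 lower without mixed barcodes, an alternative chosen after seeing the data. The log2 ratio of the 75-gene sum there was 0.046 at a score of at least 5, 0.033 at a score of at least 2 after thinning, 0.32 with the highest scrublet scores removed, 0.048 without Ifit3, 0.030 without Ifit1bl1, 0.30 without Rsad2 and 0.057 without mixed barcodes. Ccl22 turned from lower to higher at a score of at least 2 without thinning (0.74) and with it (2.77), and its UMIs came from 1 member of each library. Acod1 in control tumours turned to -0.45 without Rsad2, where no UMI of it was left in members. The causes of the other shifts were not tested. Of 1001 values for single genes under the alternatives, 900 stayed within the counting interval of the reported value, 98 left it and 3 turned in direction, the ones of Ccl22 and Acod1 above. With 32 CD147-LYTACs and 48 control members, the interval of the log2 ratio of the shares ran from -0.76 to 0.61. It covers counting error only, and with 1 library per group a difference in share was not tested.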
